A study of Mus musculus with 10 samples.

Results

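Apoe, Apod, Clu, Abca1, Abca7, Abcg1, Lrp1, Lcat and Scarb1, the genes for the main carriers, exporters, receptors and the esterifying enzyme of brain lipoproteins, were followed in mouse hippocampus after a procedure meant to ablate the lymphatic vessels of the meninges. They were chosen by symbol, with earlier results of these data known, and all 9 had a row among the 27343 genes of the deposited table. All 9 also passed the filter on low counts, which left 15938 genes in the test. The brain makes its own lipoproteins, because those of the plasma do not cross the blood-brain barrier. Astrocytes secrete apolipoprotein E and clusterin, the transporters ABCA1 and ABCG1 load such particles with phospholipid and cholesterol, and lecithin-cholesterol acyltransferase esterifies the cholesterol. Neurons and glia then take the particles up through receptors such as LRP1. In human, APOE, CLU and ABCA7 are known risk genes of late-onset Alzheimer's disease.

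The Visudyne group held 5 libraries and the vehicle group 5, all of total RNA from the whole hippocampus of wild-type C57BL/6J males aged 2 months. Visudyne mice received verteporfin, a photosensitizer, into the cisterna magna, and vehicle mice received vehicle. Red light of 689 nm was then applied through the intact skull, and the procedure was repeated after 2 weeks. The titles and the treatment protocol of all 10 libraries name the Morris water maze, a test of spatial learning, which followed the last procedure by 2 weeks, and the hippocampus was taken 3 days later. The treatment tag names the maze for Visudyne libraries alone, and if vehicle mice had not been trained, maze and Visudyne could not be told apart. The labels name no library as a pool of animals and do not say that each came from its own mouse, so p-values measure the spread between these libraries. In whole tissue, fewer cells of a type and less RNA per cell cannot be told apart.

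Total counts were 34548474 to 36956138 in Visudyne libraries and 24752362 to 41073906 in vehicle libraries. Of these counts mt-Rnr2, a mitochondrial ribosomal RNA gene, took 33.57 to 39.72% in Visudyne libraries and 32.22 to 35.68% in vehicle libraries. GC content is the percentage of G and C bases in a gene's transcript. The libraries differed in how a gene's log2 level, relative to its mean over the 10 libraries, depended on it. With that mean taken out, the group means of the slope mirror each other by construction. This slope was -0.521 to 0.0103 log2 units per 10 percentage points of GC in Visudyne libraries, against -0.0161 to 0.396 in vehicle libraries (means -0.195 ± 0.2 and 0.195 ± 0.156, SD, n = 5 each; two-sided exact permutation p = 0.0159). It was lowest in Visudyne 1 and highest in vehicle 9. Since the slope moves with the groups, fold changes below are also given with each library's GC trend removed, or with the slope in the model. Slope and group cannot be told apart in full, so these fits may also take out a difference that belongs to the groups. In the edgeR quasi-likelihood test, 3261 genes were called between the groups at an adjusted p under 0.05 (20.5%). With the GC trend removed 386 were called, and with the slope in the model 0, where an unadjusted p under 0.05 was found for 1050. Single libraries also moved the count, to 1119 without Visudyne 1, 1826 without Visudyne 2, 27 without Visudyne 3, 1127 without Visudyne 4, 5047 without Visudyne 5, 10 without vehicle 6, 1567 without vehicle 7 and 309 without vehicle 9. Markers of astrocytes, oligodendrocytes and neurons were present in every library, at summed levels of 4718 to 6265, 2415 to 3334 and 5180 to 6875 CPM, counts scaled to a common library total.

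The carriers Apoe, Clu and Apod and the enzyme Lcat were lower in the Visudyne hippocampus, the exporter Abca1 was higher, and Abca7, Abcg1, Lrp1 and Scarb1 were not called. Log2 fold changes ran from -0.80 for Lcat to 0.23 for Abca1, and 8 of the 9 were below 0, as were 48.9% of all tested genes. Of the 9, 4 were called lower, where 11.5% of all tested genes were, and 1 was called higher, where 8.98% were. In TMM-scaled CPM the groups did not overlap in Apod, lower in Visudyne, nor in Abca1, higher in Visudyne. Over all tested genes 7.22% were lower and 5.25% higher without overlap. DESeq2 also called 4 lower and 1 higher, where it called 15.4% of all tested genes lower and 12.7% higher, and so did limma-voom, at 12.2% lower and 9.29% higher. Over the 9, log2 fold changes had a median of -0.57, against 0.01 over all tested genes. Shares and medians of the 9 are description only, since the genes were chosen with earlier results of these data known. The 4 lower calls became 2 without Visudyne 1, 1 without Visudyne 2, 0 without Visudyne 3, 1 without Visudyne 4, 0 without vehicle 6, 1 without vehicle 7, 2 without vehicle 8 and 1 without vehicle 9. With the GC trend removed Apod alone of the 9 was called, lower, where 1.29% of all tested genes were called lower and 1.13% higher.

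**Figure D1:**
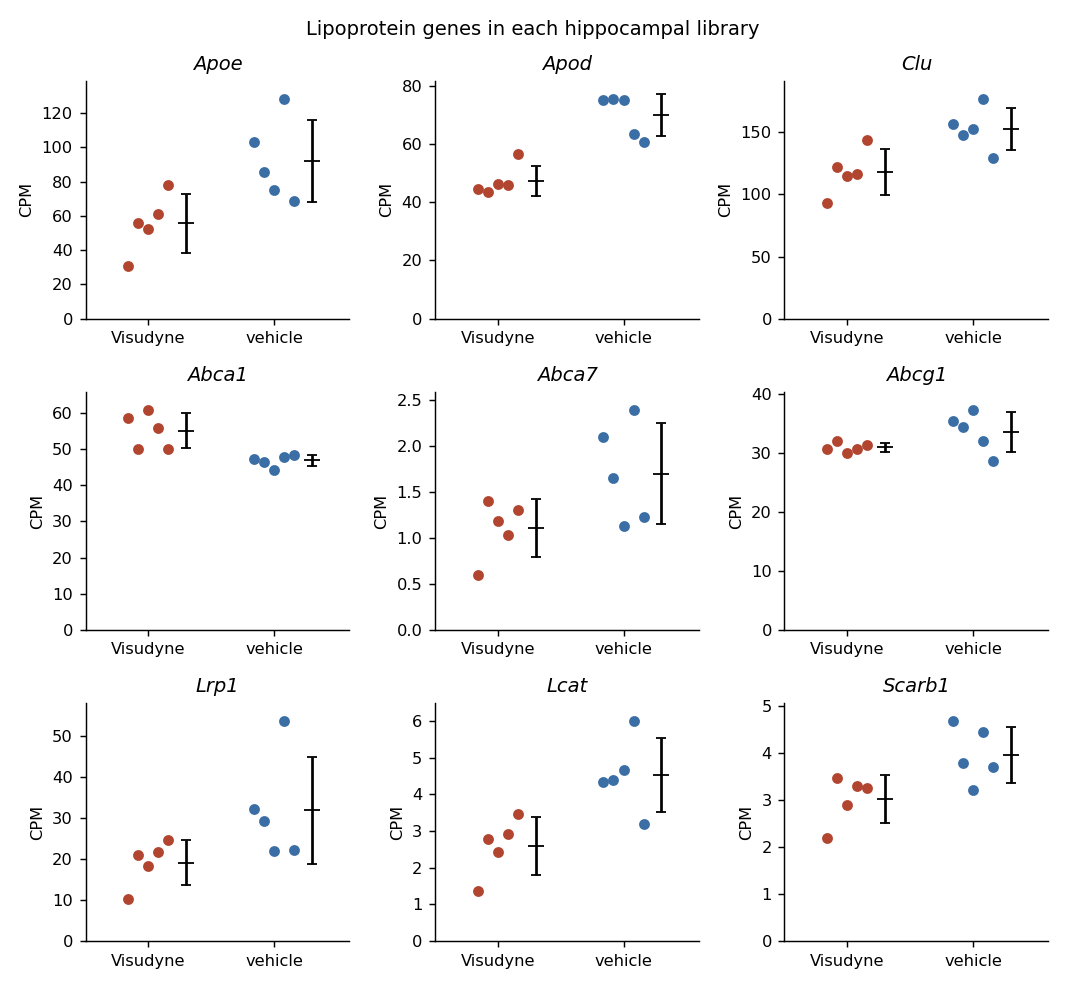
Level of each of the 9 genes in CPM (vertical axes, from 0), with 1 point per library, Visudyne left and vehicle right, and black bars for mean and SD. Apod lies at 43.4 to 56.6 CPM under Visudyne and 60.6 to 75.6 CPM in vehicle, and Abca1 at 50.004 to 60.9 and 44.3 to 48.48 CPM, while the groups overlap in the other 7 panels.

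Apod (ENSMUSG00000022548, GRCm38 chromosome 16, 31296192 to 31314808, minus strand) encodes apolipoprotein D, a lipocalin that carries arachidonic acid and other small lipids and is made in the brain by oligodendrocytes, astrocytes and perivascular cells. It stood at 44.4, 43.4, 46.2, 45.8 and 56.6 CPM in Visudyne libraries 1 to 5, against 75.1, 75.6, 75.3, 63.5 and 60.6 CPM in vehicle libraries 6 to 10. Every Visudyne library was below every vehicle library, with Visudyne 5 nearest to the vehicle range. Visudyne averaged 47.3 ± 5.3 CPM and vehicle 70.01 ± 7.33 CPM (SD, n = 5 each), a ratio of 0.675 and a log2 fold change of -0.57 with an SE of 0.09 (adjusted p = 0.0177 by edgeR). The 95% interval ran from -0.76 to -0.37. The GC content of its transcript, 47.8%, is near the median of tested genes, 49.0%, and the fold change was -0.60 with the GC trend removed (adjusted p = 0.0178 by edgeR). Among 1355 tested genes of like GC content, a band that also holds Abca1, 3.25% were called lower and 5.31% higher. With the slope in the model Apod was at -0.43 (SE 0.13, adjusted p = 0.555 by edgeR). Apod was called in 8 of the 10 fits that left out 1 library and was missed without Visudyne 3 (adjusted p = 0.058 by edgeR) and without vehicle 6 (0.0637). With the GC trend removed as well, settings added after seeing the data, it was called in 4 of 10 such fits. With 1 surrogate variable it was at -0.50 and not called (adjusted p = 0.121 by edgeR).

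Some oligodendrocyte markers were also lower under Visudyne. Of 11 tested markers 5 were called lower and 0 higher, where 11.5% of all tested genes were called lower and 8.98% higher. With the GC trend removed 3 markers were called lower, where 1.29% of all tested genes were. Their summed level was 2415 to 2907 CPM under Visudyne and 2461 to 3334 CPM in vehicle, so that the groups overlapped. Per 1000 CPM of these markers, Apod had 15.3, 17.4, 17.9, 19.0 and 22.0 CPM in Visudyne 1 to 5, against 25.4, 27.1, 22.6, 25.8 and 20.95 CPM in vehicle 6 to 10. Only Visudyne 5 reached into the vehicle range on this scale, above vehicle 10. Meningeal fibroblasts also express Apod, and their 10 markers summed to 61.5 to 112.8 CPM under Visudyne and 51.6 to 89.6 CPM in vehicle, with 1 called higher and 1 lower. Pericyte and smooth muscle markers summed to 114.2 to 124.7 CPM under Visudyne and 96.9 to 117.2 CPM in vehicle, with 1 of 8 called higher and 4 lower. Both lists stand beside the same shares of all tested genes, 8.98% higher and 11.5% lower. The part of these cell types in the level of Apod was not tested.

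Promoter windows of 250 bases before and 50 after the start site, from RefSeq on GRCm38.p6, were found for 6 of the 9 genes, Apoe, Apod, Abca1, Abca7, Lrp1 and Lcat, and not for Clu, Abcg1 and Scarb1. The windows of Apod and Abca1 are shown because these were the genes whose groups did not overlap, in opposite directions, and 1 of the 3 windows of Apoe, the one farthest upstream, because it codes for the main brain apolipoprotein. They lie at chr16:31314759-31315058, chr4:53159846-53160145 and chr7:19699139-19699438, all on the minus strand, and are written 5′ to 3′ with motif matches in capitals.
Apod: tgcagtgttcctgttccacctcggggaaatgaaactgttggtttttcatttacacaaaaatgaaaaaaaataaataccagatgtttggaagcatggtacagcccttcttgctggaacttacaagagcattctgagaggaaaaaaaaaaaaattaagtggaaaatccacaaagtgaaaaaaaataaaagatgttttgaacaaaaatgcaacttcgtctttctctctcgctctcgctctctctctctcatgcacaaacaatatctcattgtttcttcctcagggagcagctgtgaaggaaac
Abca1: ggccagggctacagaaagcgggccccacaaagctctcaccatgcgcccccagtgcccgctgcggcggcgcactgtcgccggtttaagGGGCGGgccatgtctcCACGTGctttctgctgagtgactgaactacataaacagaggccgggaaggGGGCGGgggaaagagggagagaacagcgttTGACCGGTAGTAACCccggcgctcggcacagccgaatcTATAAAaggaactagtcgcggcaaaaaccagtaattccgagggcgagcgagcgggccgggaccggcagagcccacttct
Apoe: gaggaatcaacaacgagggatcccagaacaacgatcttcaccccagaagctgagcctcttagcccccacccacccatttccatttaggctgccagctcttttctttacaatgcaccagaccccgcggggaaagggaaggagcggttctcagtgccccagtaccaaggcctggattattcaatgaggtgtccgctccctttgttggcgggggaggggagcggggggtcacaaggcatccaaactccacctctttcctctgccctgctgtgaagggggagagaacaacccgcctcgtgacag
Motifs were searched on both strands. They were the E-box CACGTG, the GC box GGGCGG, the TATA box TATAAA, the nuclear receptor half-site AGGTCA, the DR4 element (a direct repeat of that half-site), the TFEB element, which contains the E-box, and a looser form of DR4 that leaves the first base of each half-site free and has another base in one of them. The GC box, the TATA box and the looser repeat were added after the windows had been read, and no match overlapped another in the 3 windows shown. The window of Apod held no match and had a GC content of 37.3%, against 62.7% for Abca1, 57.7% for Apoe and a median of 52.7% over 32851 windows. The window of Abca1 held CACGTG at -147, GGGCGG at -163 and -97, TATAAA at -29 and the looser repeat at -67, there written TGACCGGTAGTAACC since it runs on the other strand, counted from the start site to the first base of the match. In human cells the oxysterol receptor LXR, paired with RXR, induces ABCA1 through a DR4 element, and the match here is one of letters only. Of all windows 0.0487% held the looser repeat, 7.15% CACGTG, 35.7% GGGCGG, 13.6% TATAAA, 16.3% AGGTCA, 0.0152% DR4 and 0.326% the TFEB element. Since the looser repeat was added after the windows had been read, its low share gives its match in Abca1 no weight. The Apoe window shown held no match, and of the other Apoe windows the one at 19698572 to 19698871 held TATAAA at -100 and -96, in overlapping matches on opposite strands, and the third none.

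Apoe (ENSMUSG00000002985, chromosome 7, 19696109 to 19699188, minus strand), the main lipid carrier that astrocytes secrete, stood at 30.5, 56.1, 52.5, 61.1 and 78.1 CPM in Visudyne 1 to 5, against 102.9, 85.5, 75.1, 128.6 and 68.7 CPM in vehicle 6 to 10. Visudyne 1 was the lowest and vehicle 9 the highest of the 10 libraries, and Visudyne 5 lay above 2 vehicle libraries. Visudyne averaged 55.7 ± 17.2 CPM and vehicle 92.2 ± 24.1 CPM (SD, n = 5 each), a ratio of 0.604 and a log2 fold change of -0.73 with an SE of 0.22 (95% interval -1.21 to -0.24, adjusted p = 0.0406 by edgeR). At its GC content of 59.5%, the trend fitted over all genes alone was 0.49 log2 units lower in the Visudyne group. Relative to the mean of the 10 libraries, that trend averaged -0.243 in Visudyne and 0.243 in vehicle. After removal of the GC trend the log2 fold change was -0.26 (SE 0.09, adjusted p = 0.123 by edgeR), and with the slope in the model it turned to 0.18 (SE 0.09, adjusted p = 0.776). Leaving out Visudyne 1, 2, 3 or 4 or vehicle 6, 7 or 9 ended the call, at adjusted p = 0.0608 to 0.0966 by edgeR, with log2 fold changes of -0.76 to -0.57. Markers of the cells that make most brain Apoe were present at overlapping summed levels. The 12 astrocyte markers, led by Slc1a2 and Slc1a3, summed to 4823 to 6265 CPM under Visudyne and 4718 to 5422 CPM in vehicle. Of them 1 was called higher and 2 lower. The 12 microglia markers summed to 212.9 to 262.9 CPM under Visudyne and 197.0 to 219.0 CPM in vehicle, with 1 called higher and 1 lower. Over all tested genes 8.98% were called higher and 11.5% lower.

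Clu (ENSMUSG00000022037, chromosome 14, 65968483 to 65981547, plus strand), which encodes clusterin or apolipoprotein J, an extracellular chaperone found on brain lipoproteins, stood at 93.0, 121.8, 114.6, 116.7 and 144.2 CPM in Visudyne 1 to 5, against 156.7, 148.2, 152.6, 177.2 and 129.6 CPM in vehicle 6 to 10. The groups overlapped only through Visudyne 5, which lay above vehicle 10. Visudyne averaged 118.0 ± 18.3 CPM and vehicle 152.9 ± 17.1 CPM (SD, n = 5 each), a ratio of 0.772 and a log2 fold change of -0.37 with an SE of 0.11 (95% interval -0.61 to -0.14, adjusted p = 0.0364 by edgeR). With the GC trend removed it was -0.04 (SE 0.05, adjusted p = 0.675 by edgeR), and with the slope in the model it turned to 0.04 (SE 0.06). Its GC content was 55.6%. The call was lost without any 1 of Visudyne 1, 2, 3 and 4 or vehicle 6, 7, 8 and 9, at adjusted p = 0.0547 to 0.086 by edgeR. Choroid plexus epithelium also expresses Clu. The 13 choroid plexus markers, led by Enpp2 and Ttr, summed to 1592 CPM in Visudyne 3 and 991.8 CPM in Visudyne 5, against 195.0 to 253.3 CPM in all other libraries. Of 10 tested markers 3 were called higher and 0 lower, where 8.98% of all tested genes were called higher and 11.5% lower. In those libraries Clu stood at 114.6 CPM (Visudyne 3), below Visudyne 2 and 4, and at 144.2 CPM (Visudyne 5), its highest level among Visudyne libraries. With both left out the log2 fold change of Clu was -0.47 (adjusted p = 0.0333 by edgeR). It was -0.46 without Visudyne 5 alone and -0.36 without Visudyne 3 alone. The part of choroid plexus in the level of Clu was not tested.

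Apolipoproteins other than these were near the limit of detection. Of 11 listed (Apoa1, Apoa2, Apoa4, Apoa5, Apob, Apoc1, Apoc2, Apoc3, Apoc4, Apoh and Apom), 8 had a row, and none of the 8 passed the filter. Their counts summed over the 10 libraries were between 2, for Apoc2 and Apoc3, and 64, for Apoh. Apoc1, the neighbour of Apoe in its gene cluster, had 40 counts in all.

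Of the 3 exporters Abca1 alone was called. Abca1 (ENSMUSG00000015243, chromosome 4, 53030787 to 53159895, minus strand), which moves cholesterol and phospholipid onto lipid-poor apolipoprotein E, stood at 58.5, 50.2, 60.9, 55.9 and 50.004 CPM in Visudyne 1 to 5, against 47.3, 46.4, 44.3, 47.9 and 48.48 CPM in vehicle 6 to 10. In these TMM-scaled CPM every Visudyne library was above every vehicle library, with Visudyne 2 and 5 close to the vehicle range. Divided by total counts alone, the groups overlapped in Abca1. Visudyne averaged 55.1 ± 4.91 CPM and vehicle 46.9 ± 1.63 CPM (SD, n = 5 each), a ratio of 1.18 and a log2 fold change of 0.23 with an SE of 0.07 (95% interval 0.09 to 0.38, adjusted p = 0.0337 by edgeR). After removal of the GC trend it was 0.19 (SE 0.06, adjusted p = 0.102 by edgeR), and with the slope in the model 0.13 (SE 0.09, adjusted p = 0.83). The call was lost without Visudyne 1, 3 or 4 or vehicle 6, 7, 8 or 9 (adjusted p = 0.0601 to 0.0812 by edgeR), without the filter on low counts (0.0534), and with total counts as library sizes. In that last setting Abca1 was at 0.02 while the median of all genes moved to -0.19, so that it lay 0.22 above the median.

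Abcg1 (ENSMUSG00000024030, chromosome 17, 31057675 to 31117988), the transporter that adds cholesterol to particles already formed, had 30.02 to 31.9 CPM under Visudyne and 28.6 to 37.3 CPM in vehicle. Its Visudyne libraries lay within the vehicle range, at means of 30.9 ± 0.731 and 33.5 ± 3.33 CPM, and its log2 fold change was -0.12 (95% interval -0.27 to 0.03, adjusted p = 0.214 by edgeR). It was at 0.06 with the GC trend removed. Abca7 (ENSMUSG00000035722, chromosome 10, 79996494 to 80015572), a phospholipid transporter with roles in phagocytosis and in human Alzheimer's disease risk, was scarce, with 19 to 50 counts per Visudyne library and 31 to 94 per vehicle library. Its level was 0.597, 1.4, 1.18, 1.03 and 1.3 CPM in Visudyne 1 to 5, against 2.09, 1.65, 1.13, 2.39 and 1.22 CPM in vehicle 6 to 10, so that the groups overlapped. The log2 fold change of Abca7 was -0.63 (95% interval -1.20 to -0.05, adjusted p = 0.101 by edgeR). After removal of the GC trend it was -0.15, and 0.31 with the slope in the model, neither of them called.

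Lcat (ENSMUSG00000035237, chromosome 8, 105939551 to 105943382, minus strand), whose enzyme esterifies cholesterol on the particle, had the largest log2 fold change in size among the 9. It stood at 1.35, 2.77, 2.43, 2.93 and 3.47 CPM in Visudyne 1 to 5, against 4.34, 4.39, 4.67, 6.0 and 3.19 CPM in vehicle 6 to 10. The groups overlapped only through Visudyne 5, above vehicle 10. Visudyne averaged 2.59 ± 0.788 CPM and vehicle 4.52 ± 1.0 CPM (SD, n = 5 each), a ratio of 0.573 and a log2 fold change of -0.80 with an SE of 0.22 (95% interval -1.29 to -0.32, adjusted p = 0.0334 by edgeR). With 43 to 133 counts per Visudyne library and 81 to 236 per vehicle library, its values carry more counting error than those of the 3 carriers. With the GC trend removed the log2 fold change was -0.49 (SE 0.15, adjusted p = 0.086 by edgeR), further from 0 than that of any other of the 9 except Apod. With the slope in the model it turned to 0.04 (SE 0.16). The call was lost without Visudyne 2, 3 or 4 or vehicle 6, 7, 8 or 9, at adjusted p = 0.0519 to 0.0784 by edgeR.

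Neither receptor was called. Lrp1 (ENSMUSG00000040249, chromosome 10, 127538161 to 127621148), a large endocytic receptor for apolipoprotein E on neurons and glia, stood at 10.1, 20.8, 18.3, 21.5 and 24.5 CPM in Visudyne 1 to 5, against 32.2, 29.1, 22.0, 53.6 and 22.1 CPM in vehicle 6 to 10. Vehicle 9 stood far above the rest, and Visudyne 5 lay above 2 vehicle libraries. The log2 fold change of Lrp1 was -0.74 (SE 0.26, 95% interval -1.31 to -0.17, adjusted p = 0.0616 by edgeR), -0.30 after removal of the GC trend, and 0.33 with the slope in the model. It was called without Visudyne 5 (adjusted p = 0.0391 by edgeR) and without vehicle 10 (0.0429). Scarb1 (ENSMUSG00000037936, chromosome 5, 125277087 to 125341094), the scavenger receptor for high-density lipoprotein, had 2.2 to 3.47 CPM under Visudyne and 3.22 to 4.69 CPM in vehicle. Its log2 fold change was -0.39 (95% interval -0.72 to -0.06, adjusted p = 0.0761 by edgeR), and -0.03 with the GC trend removed. With total counts as library sizes, where 24.5% of all tested genes were called lower, Lrp1 (adjusted p = 0.0413 by edgeR), Scarb1 (0.0388) and the exporter Abcg1 (0.0311) were called lower.

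**Figure D2:**
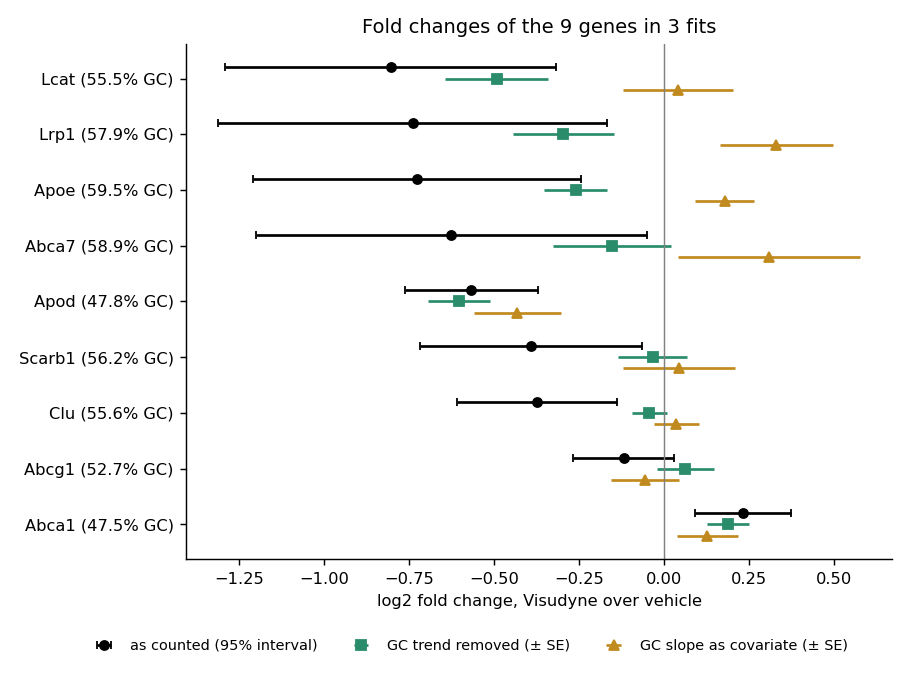
Log2 fold change of the 9 genes, Visudyne over vehicle (horizontal axis), as counted with its 95% interval, and with their SE after removal of the GC trend or with the slope in the model. Apod stays between -0.60 and -0.43 in the 3 fits, while Apoe goes from -0.73 to 0.18 and Lrp1 from -0.74 to 0.33.

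The 9 genes, chosen by symbol with earlier results of these data known, differed in GC content. Of them 6, Apoe, Clu, Abca7, Lrp1, Lcat and Scarb1, had transcripts with more than 55% GC, as did 19.7% of all tested genes. All 6 were lowest in Visudyne 1, the library with the lowest GC slope, and 5 of the 6, all but Scarb1, were highest in vehicle 9, the library with the highest. Of these 6 genes 3 were called lower and 0 higher. Among the 3120 tested genes above 55% GC, 29.9% were called lower and 0.737% higher, at a median log2 fold change of -0.43. Of the genes lowest in GC among the 9, Abca1 was highest in Visudyne 3 and Apod in vehicle 7. With Visudyne 1 and vehicle 9 both left out, a setting chosen after seeing the data, Apod was at -0.58 (adjusted p = 0.0421 by edgeR), Apoe at -0.42 (0.102), Clu at -0.24 (0.112), Lcat at -0.52 (0.0804), Lrp1 at -0.31 (0.166) and Abca1 at 0.22 (0.0948).

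**Figure D3:**
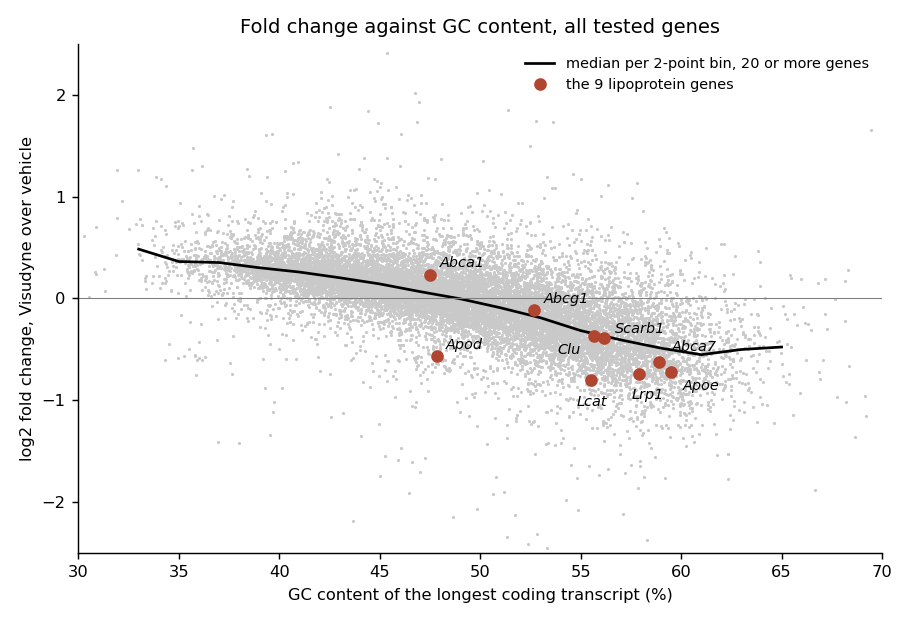
Log2 fold change, Visudyne over vehicle, against the GC content of the longest coding transcript in percent, with 1 grey point per tested gene, the median per bin of 2 percentage points as a line, and the 9 genes in red; 34 of 15829 genes lie outside the range drawn. Clu at -0.37 and Scarb1 at -0.39 lie close to the line, Lcat at -0.80 and Apod at -0.57 below it, and Abca1 at 0.23 above it.

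**Figure D4:**
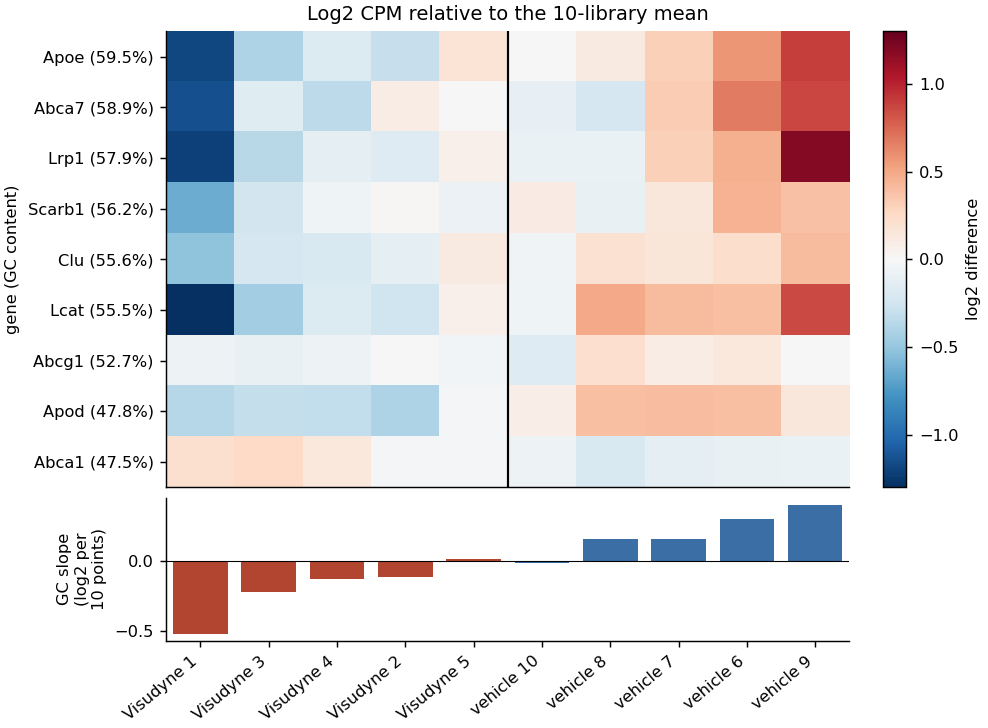
Log2 CPM of the 9 genes in each library relative to the mean of the 10 libraries (colour), genes ordered by GC content in percent, and libraries by GC slope within Visudyne (left) and vehicle (right), with the slope as bars in log2 units per 10 percentage points. The 6 genes above 55% GC are lowest in Visudyne 1, whose slope is -0.521, while Apod is lowest in Visudyne 2 and Abca1 in vehicle 8.

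Set against transcript length, the carriers were the most abundant of the 9. On the scale of CPM per kilobase of the longest coding transcript, Clu averaged 65.2 ± 10.1 in Visudyne and 84.5 ± 9.46 in vehicle, Apoe 39.5 ± 12.2 and 65.4 ± 17.1, and Apod 22.8 ± 2.56 and 33.8 ± 3.54 (SD, n = 5 each). By mean level over the 10 libraries Clu ranked 307, Apoe 540 and Apod 1197 among 13891 tested protein-coding genes. Abcg1, at 5.3 ± 0.125 in Visudyne and 5.75 ± 0.571 in vehicle, and Abca1, at 5.37 ± 0.478 and 4.57 ± 0.158, came next. Abcg1 was above Abca1 in 2 of 5 Visudyne libraries and in 5 of 5 vehicle libraries, and their order is reversed when all annotated exons are taken as the length. Lcat, at 1.93 and 3.37, Lrp1, at 1.28 and 2.14, and Scarb1, at 1.2 and 1.58 in Visudyne and vehicle, overlapped as neighbours in both groups. Abca7 was lowest, at 0.165 and 0.254, below Scarb1 in every library. Clu was above Apoe within each of the 10 libraries, although their ranges over libraries overlapped.

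**Figure D5:**
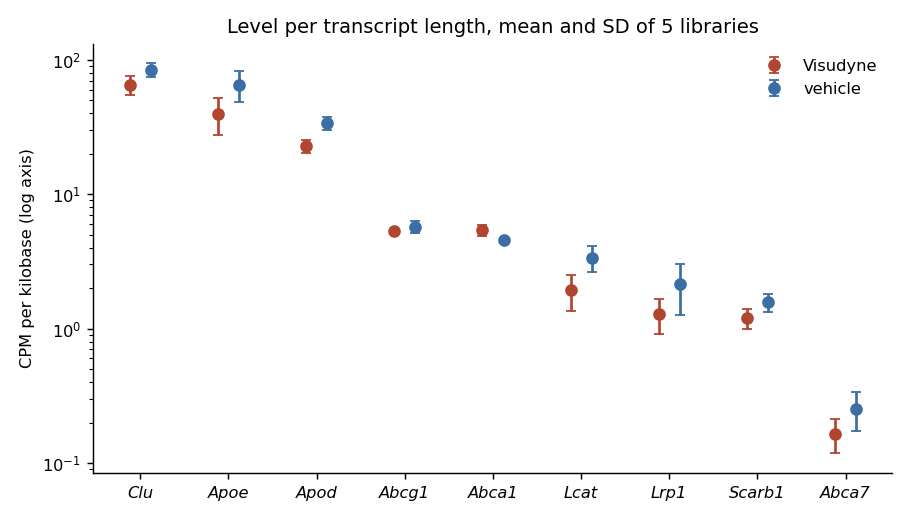
Level of the 9 genes per kilobase of the longest coding transcript, in CPM per kilobase on a log axis, as the mean and SD of 5 Visudyne libraries (left) and 5 vehicle libraries (right). The carriers Clu, Apoe and Apod lie between 22.8 and 84.5, and Abca7 lies below 0.3 in both groups.

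The genes most like Apoe, Apod and Clu across libraries were sought among 8487 named genes averaging 5 CPM or more, by Pearson's r of log2 CPM deviations from the group means over the 10 libraries. This is a description over libraries that differ in their GC slope, and carries no test. Apoe was most like Abca2 (r = 0.996), Atp5j2 (0.996) and Ndufv1 (0.995), and Clu most like Cnpy2 (0.997), Tspan9 (0.988) and Gpx4 (0.988). Apod was most like Nckap1l (0.938), Osbpl2 (0.924) and Sqle (0.891). Among the 9 genes, Apoe went with Lrp1 (r = 0.962), Clu (0.946) and Lcat (0.935) and less with Apod (0.353) and Abca1 (-0.392). With the GC trend removed, the likeness of Apoe to Clu was r = 0.0696, while it was 0.823 to Lrp1 and 0.817 to Lcat. Apoe was then most like Tpi1, Rpl37 and Mbnl1, Apod like Hmgcs1, Nckap1l and Cacnb1, and Clu like Ndrg2, Glul and Snapc5. Ndrg2 and Glul are genes with high expression in astrocytes, and the part of any cell type in these likenesses was not tested.

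Most other lipoprotein receptors and their adaptors were not called. Of 16 tested, 3 were called higher, 2 lower and 11 neither, where 8.98% of all tested genes were called higher and 11.5% lower, the median of their log2 fold changes was 0.07, and with the GC trend removed 0 were called. Vldlr, the receptor for very low density lipoprotein and reelin, was at 149.0 ± 10.9 CPM under Visudyne and 121.0 ± 9.23 CPM under vehicle (log2 fold change 0.31, adjusted p = 0.0252 by edgeR, n = 5 each). Lrp1b, a relative of Lrp1, had a log2 fold change of 0.29, and Cd36, a scavenger receptor, one of 1.27, at 2.26 ± 0.37 CPM under Visudyne and 0.965 ± 0.606 CPM under vehicle. Lrpap1, the chaperone of LRP1 in the endoplasmic reticulum, had one of -0.39, at 35.5 ± 6.06 CPM under Visudyne and 46.5 ± 2.36 CPM under vehicle (adjusted p = 0.0311 by edgeR). Without that trend Vldlr was at 0.12, Lrp1b at 0.09, Cd36 at 1.0 and Lrpap1 at -0.21. Without Visudyne 3, vehicle 6 or vehicle 9, 0 of the 16 were called in either direction, without Visudyne 1 or 4 there was 1 higher, and without Visudyne 4 there were 0 lower. Leaving out Visudyne 1 or 2 or vehicle 7 or 8 left 1 lower, and total counts as library sizes gave 1 higher and 5 lower. With total counts 1.23% of all tested genes were called higher and 24.5% lower.

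Of 19 tested genes of sterol export, lipolysis and storage, 3 were called higher, 4 lower and 12 neither, against the same shares of all tested genes, 8.98% higher and 11.5% lower; the median of their log2 fold changes was 0.04, and 0 were called with the GC trend removed. The transporter genes Abca8b and Abca5 were at 1.19 and 1.24 times their vehicle level, and Lpl, the lipoprotein lipase gene, at 1.31 times. Cyp27a1, which encodes sterol 27-hydroxylase, was at 0.633 of its vehicle level, at 0.513 ± 0.0799 CPM under Visudyne and 0.811 ± 0.152 CPM under vehicle (adjusted p = 0.042 by edgeR, n = 5 each). The 4 lower calls became 0 without Visudyne 1, 2, 3 or 4 or vehicle 6, 7 or 9, 2 without vehicle 8, 7 without Visudyne 5 and 8 without vehicle 10. The 3 higher calls became 0 without Visudyne 1, 3 or 4 or vehicle 6 or 9, 1 without Visudyne 2 or vehicle 8, and 5 without Visudyne 5. DESeq2 called 4 higher and 7 lower, and total counts as library sizes 0 higher and 9 lower. Of all tested genes DESeq2 called 12.7% higher and 15.4% lower, and total counts 1.23% higher and 24.5% lower. Without Visudyne 5, 2174 of all tested genes were called higher and 2873 lower, and without vehicle 10, 1447 higher and 2197 lower. With all libraries 1432 were called higher and 1829 lower.

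Of 16 nuclear receptors and regulators of sterol genes, 1 was called higher and 2 lower, where 8.98% of all tested genes were called higher and 11.5% lower. Their log2 fold changes had a median of -0.39, and of 0.03 with the GC trend removed. The lower calls became 0 without Visudyne 1, 2, 3 or 4 or vehicle 6, 7 or 9, 5 without Visudyne 5, and 3 without vehicle 8 or 10. Over all tested genes 2873 were called lower without Visudyne 5, 1364 without vehicle 8 and 2197 without vehicle 10, against 1829 with all libraries. Rxrb, at 61.4% GC, was at 0.592 and Scap, whose protein senses sterols, at 0.705 of the vehicle level. Rxrg was at 0.978 ± 0.373 CPM under Visudyne and 0.414 ± 0.209 CPM under vehicle (log2 fold change 1.23, adjusted p = 0.0399 by edgeR). Rxrg was the higher call of this list, and it was lost without Visudyne 2, 3 or 4 or vehicle 6, 7, 8, 9 or 10, without the filter on low counts, with a filter at a mean of 1 CPM, which it does not pass, with total counts as library sizes and with 1 surrogate variable. With the GC trend removed Rxrg passed the edgeR test at 1.51 (adjusted p = 0.0394), and with the slope in the model it was not, at 2.52 (adjusted p = 0.259), while Rxrb was at -0.23 and Scap at -0.03 with the GC trend removed. Nr1h2, the gene for LXR beta, was at -0.88 (adjusted p = 0.0522 by edgeR), and at -0.38 with the GC trend removed.

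Of 20 cholesterol synthesis genes, which supply the lipid, 1 was called lower and 0 higher, where 11.5% of all tested genes were called lower and 8.98% higher. Lower calls numbered 0 without Visudyne 3, vehicle 6 or vehicle 9, 5 without Visudyne 5, 2 without vehicle 10, and 5 without Visudyne 3 and 5 together. Over all tested genes they numbered 5, 5, 128, 2873, 2197 and 1726 in the same settings, in that order. Ebp, a sterol isomerase gene, was at 4.07 ± 0.578 CPM under Visudyne and 5.74 ± 0.276 CPM under vehicle (ratio 0.71, adjusted p = 0.0246 by edgeR, n = 5 each), and was called at -0.41 with the GC trend removed (adjusted p = 0.0408). Over these 20 genes log2 fold changes had a median of 0.04. Pmvk, at -0.74, and Hmgcs1, at 0.25, were not called. Hmgcs1 averaged 201.0 ± 19.9 CPM under Visudyne and 169.0 ± 17.8 CPM under vehicle.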

How the data were processed

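Total RNA was sequenced with a stranded kit, per the labels' protocols. FastQC and Salmon were run and the build was mm10, per the submitters' processing notes. The deposited table holds estimated counts per gene as whole numbers, presumably rounded by the authors. Versions, annotation and filters are not given in these sources. The pathway lists, markers, tests and the 9 genes were chosen with earlier results of these data known.

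Symbols, positions and GC content came from GENCODE M21 (GRCm38), which held 27053 of 27343 identifiers. Counts were tested in R 4.3.3 with edgeR 4.0.16 (filterByExpr, TMM, quasi-likelihood test by group, two-sided, Benjamini-Hochberg over all tested genes, called under 0.05). SE is the log2 fold change over the square root of F. CPM use TMM library sizes. GC trends were loess fits (span 0.3) per library, entered as offsets. They were fitted to log2 CPM (prior count 2) minus each gene's mean over the 10 libraries, and GC slopes were linear fits to the same values. Within groups, every pair of libraries differed beyond sampling noise (lowest chi-square over its degrees of freedom, 13.5), and each library counted once. The test was run on simulated counts with genes drawn independently at a common dispersion and no GC trend differing within a group. That gives no error rate for these libraries. Named genes are the 9, up to 4 per list by smallest p, 2 leading markers and 3 most alike; some of these are not reported here. Alternatives used DESeq2 1.42.0, limma 3.58.1 and sva 3.50.0. Intervals rest on the spread between libraries. Totals were 24752362 to 41073906 counts, of which mt-Rnr2 took 32.22 to 39.72%, and depth limits scarce genes most.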

Additional observations from a re-analysis of the deposited data

Results flagged for a closer look

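Of 40 groups of 5 libraries examined, 4 had 1 library far from the others, where chance gives about 1 in 20. Apod stood at 56.6 CPM in Visudyne 5, against 43.4 to 46.2 CPM in the other Visudyne libraries. The microglia markers summed to 197.0 CPM in vehicle 9, against 214.2 to 219.0 CPM in the other vehicle libraries, and the choroid plexus markers to 195.0 CPM in vehicle 9, against 243.7 to 253.3 CPM. The pericyte and smooth muscle markers summed to 124.7 CPM in Visudyne 1, against 114.2 to 115.5 CPM in the other Visudyne libraries.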

How the results depend on the processing

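Over the 23 alternatives planned, Apod was lower in 23 and called in 19 (log2 fold change -0.76 to -0.43), and Abca1 higher in 23 and called in 10 (0.02 to 0.27). Apoe was called in 12, Lcat in 12, Clu in 11, Lrp1 in 3, Abcg1 and Scarb1 in 1 each and Abca7 in 0. Leaving out each library gave 0 to 5 genes called lower, 0 to 1 called higher and 10 to 5047 of all genes. With 1 surrogate variable 0 and 0 of the 9 and 1 of all genes were called, with GC removed 1, 0 and 386, with GC and length removed 1, 0 and 443, with the slope in the model 0, 0 and 0, with total counts 7, 0 and 4098 (24.5% lower, 1.23% higher), without the filter 4, 0 and 2075, and without Visudyne 1 and vehicle 9 1, 0 and 100. Signs turned for Abca7 (0.00082) and Lrp1 (0.0318) with 1 surrogate variable, for Abcg1 with GC (0.0636) or GC and length removed (0.064), and with the covariate for Apoe (0.18), Clu (0.0372), Abca7 (0.31), Lrp1 (0.33), Lcat (0.0417) and Scarb1 (0.0454); beyond the GC fits the cause was not tested. With GC removed and 1 library left out, settings added after seeing the data, Apod was called in 4 of 10 fits (-0.67 to -0.56) and Abca1 in 1 (0.15 to 0.23). DESeq2 called 4480 genes and limma-voom 3421. No paired analysis was possible because the groups share no replicate numbers. Abca7, Lcat and Scarb1, with at most 236 counts a library, are the genes that depth limits.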

Other observations

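Some genes of the pathway that the naming rule did not pick are given here by choice after their values were seen. Sorl1, a sorting receptor and human Alzheimer's disease risk gene, was at 238.6 ± 16.3 CPM under Visudyne and 248.9 ± 19.8 CPM under vehicle (log2 fold change -0.06, 95% interval -0.21 to 0.09, adjusted p = 0.532 by edgeR, n = 5 each). Reln, the ligand of Vldlr and Lrp8, was at 67.5 ± 17.9 CPM under Visudyne and 59.5 ± 7.66 CPM under vehicle, and its log2 fold change of 0.18 was not called (adjusted p = 0.381 by edgeR). Lrp8, the apolipoprotein E receptor 2 gene, was at 0.17 (adjusted p = 0.0972). Mylip, an LXR target that marks LDL receptors for breakdown, was at 0.06 (95% interval -0.10 to 0.22, adjusted p = 0.58 by edgeR), and Srebf1, another LXR target, at -0.44 (adjusted p = 0.195) and at 0.02 with the GC trend removed.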
